A study of Arabidopsis thaliana with 4 samples.

Results

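The loci described here are those of the plastid genome, the small circular DNA that plastids keep from their cyanobacterial ancestor. They were chosen by identifier: of the 33602 loci counted in each library, 133 carry a plastid (ATCG) identifier, and the 61 of these with 10 or more counts summed over the 4 libraries are the members. The remaining plastid loci had 1 to 9 counts in 31 cases and no count in 41 cases. Libraries came from the root tips of Arabidopsis thaliana seedlings, 4 days after germination. The groups were med16-2 and Col-0, each on low phosphate (5 µM, low-Pi) and on high phosphate (1 mM, high-Pi), all on agar medium with sucrose, and med16-2 is a mutant line in the Col 0 ecotype of the gene for subunit 16 of Mediator, the complex that couples transcription factors to RNA polymerase II. There is 1 library per group, so differences have no replicate check and compare libraries rather than conditions. The labels do not say how many seedlings a library holds.

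Plastid DNA encodes parts of the photosystems, the cytochrome b6f complex, the ATP synthase, the NDH complex, the large subunit of Rubisco, a bacterial type RNA polymerase, part of the plastid ribosome, its ribosomal and transfer RNAs, and a few proteins with other tasks such as a subunit of the Clp protease. Mediator works with RNA polymerase II in the nucleus, whereas plastid genes are read by a plastid-encoded and a nuclear-encoded RNA polymerase. Root tips hold non-green plastids, the proplastids of dividing cells and the starch-filled amyloplasts of the root cap. In plastids a poly(A) tail marks an RNA for decay rather than for translation, and the libraries are labelled as mRNA libraries from a kit that commonly selects poly(A) RNA, a step the labels do not spell out. Total plastid RNA was not measured, so the part of it that the counts represent is unknown, and fewer plastid-rich cells and less plastid RNA per cell cannot be told apart in them.

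The files and the reference give symbols to nuclear loci but pair almost no plastid identifier with a symbol, so most members are named by identifier only and no role is given to them. Notes on nuclear genes of like sequence in the TAIR10.1 annotation describe 4 members: ATCG00670 as the plastid-encoded CLP P (the proteolytic subunit of the Clp protease), ATCG00530 as a CemA-like protein related to proton extrusion, ATCG00660 as ribosomal protein L20 and ATCG00750 as ribosomal protein S11. Because locus lengths of the authors' annotation were not used here, counts are compared between libraries and not between loci.

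Counts were unevenly spread along the identifiers, which are numbered in order along the molecule. The 61 members held 4569 of the plastid counts and the loci below 10 counts only 114 in sum. Members ranged from 10 to 364 summed counts with a median of 50, against a median of 872 for the 20867 loci of the whole genome that had 10 or more counts. The 12 members with the most counts held 51.7% of the members' counts. Just inside the limit were ATCG00440, ATCG01020 and ATCG01090 with 10 counts each, and just outside it were ATCG00690 with 9 and ATCG00370 and ATCG00420 with 8.

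**Figure D1:**
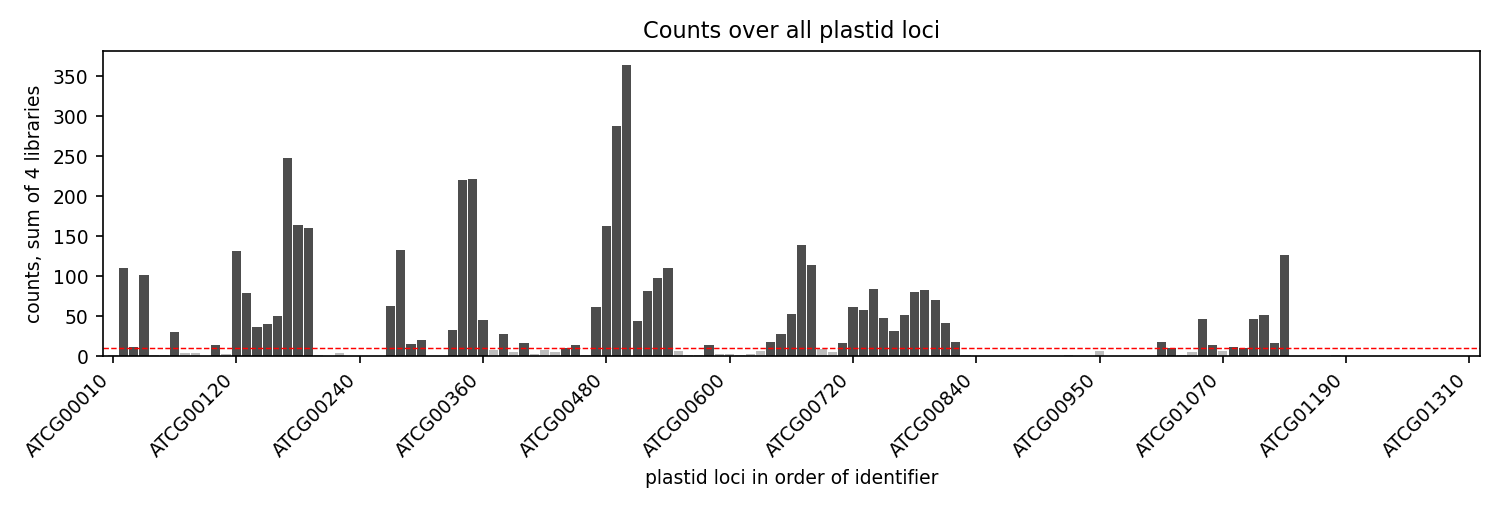
Counts summed over the 4 libraries (vertical axis) for the 133 plastid loci in order of identifier (horizontal axis); dark bars are the 61 members, pale bars the other loci, and the dashed line marks 10 counts. The loci of 2 runs of identifiers, ATCG00830 to ATCG01000 and ATCG01140 to ATCG01310, have next to no counts.

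A pair of long runs of identifiers was almost empty. From ATCG00830 to ATCG01000, 16 of 19 loci had no count and the run held 8 counts in all. From ATCG01140 to ATCG01310, 17 of 18 loci had no count and the run held 1. The last locus of the second run, ATCG01310, is described in the reference notes as ribosomal protein L2, had 0 counts in every library, and rpl2 is listed 2 times in the TAIR10.1 plastid annotation. That annotation lists 15 plastid symbols more than once, covering 36 of its 129 plastid genes. Plastid genomes carry a large inverted repeat with a second copy of the ribosomal RNA genes and their neighbours, and reads that align to several places are listed apart from the gene counts in these files, so a count near 0 in these runs does not show that their RNA was absent.

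The 4 libraries differed in depth and make-up. Gene counts totalled 12302510 in low-Pi med16-2, 14266585 in high-Pi med16-2, 15696333 in low-Pi Col-0 and 10079345 in high-Pi Col-0. In low-Pi med16-2, 36.6% of the reads listed aligned to several places and nuclear ribosomal RNA loci took 1.38% of gene counts. In the other 3 libraries these shares were between 6.65% and 9.27% and between 0.0974% and 0.173%. MED16 had 48, 56, 747 and 420 counts in the order of libraries used above, so both med16-2 libraries lay far below both Col-0 libraries. The 7 root tip markers, among them PLT1, PLT2, SMB and CYCB1;1, were detected in every library, with summed levels between 197 and 205 CPM, the TMM-scaled counts per 1000000 gene counts.

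Plastid counts were a very small part of every library, and their share differed most in med16-2. Members had 1409 counts in low-Pi med16-2, 464 in high-Pi med16-2, 1890 in low-Pi Col-0 and 806 in high-Pi Col-0. Per 1000000 gene counts this was 115 (exact binomial 95% interval 109 to 121) in low-Pi med16-2, 32.5 (29.6 to 35.6) in high-Pi med16-2, 120 (115 to 126) in low-Pi Col-0 and 80.0 (74.5 to 85.7) in high-Pi Col-0. As a share of gene counts, the med16-2 library at high phosphate stood lowest, the Col-0 library at high phosphate lay between, and the intervals of both low phosphate libraries overlapped. These and all further intervals cover counting error only.

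**Figure D2:**
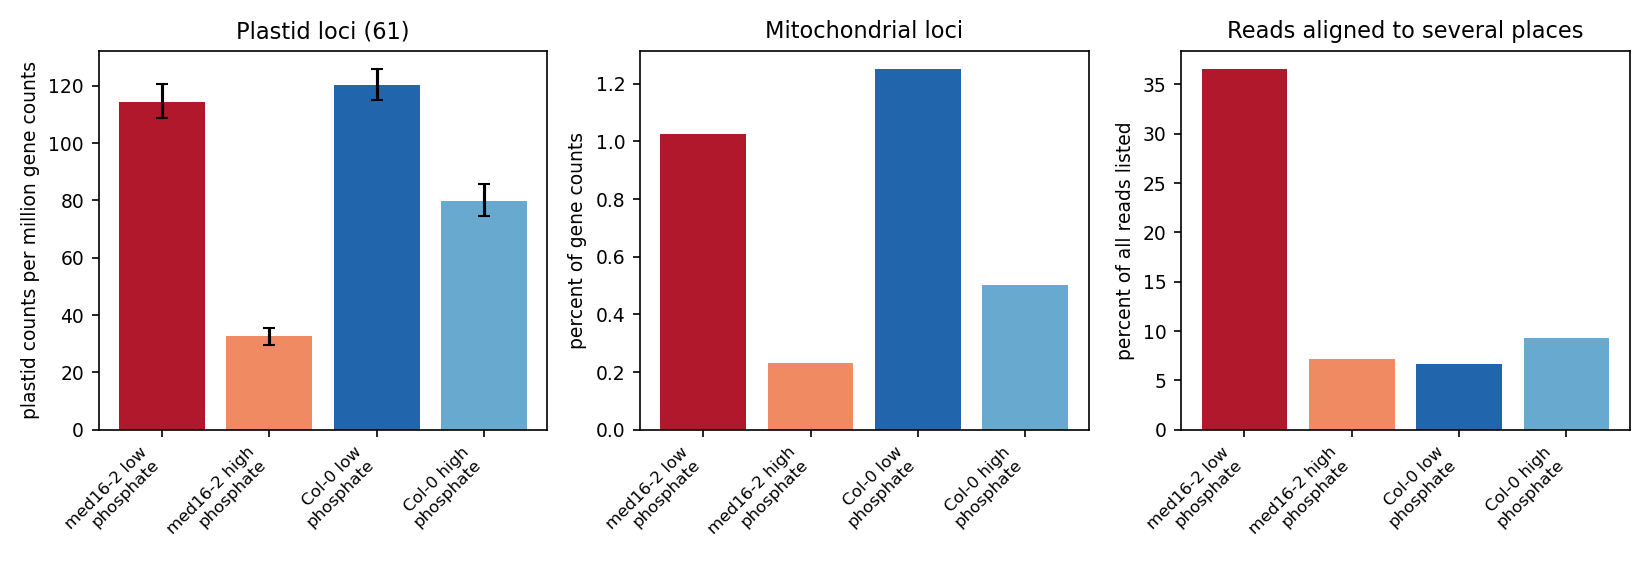
Left, counts on the 61 plastid loci per 1000000 gene counts with exact binomial 95% intervals; middle, percent of gene counts on the 146 mitochondrial loci; right, percent of all reads listed that aligned to several places; each bar is 1 library. The plastid share of gene counts is lowest in high-Pi med16-2 (32.5) and close in both low phosphate libraries (115 and 120), while reads aligned to several places reach 36.6% in low-Pi med16-2.

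As ratios of shares, low over high phosphate was 3.52-fold (95% interval 3.17 to 3.92) in med16-2 and 1.51-fold (1.39 to 1.64) in Col-0. The med16-2 over Col-0 ratio was 0.407 (0.362 to 0.456) at high phosphate and 0.951 (0.887 to 1.02) at low phosphate. With all 133 plastid loci, free of the minimum of 10 counts, the same ratios were 3.52, 1.52, 0.414 and 0.959. With all reads listed as the denominator, the ratio for phosphate in med16-2 was 2.27 and that for genotype at low phosphate 0.611, because the reads aligned to several places then enter the total. Per 1000000 reads listed, plastid counts were 66.3 in low-Pi med16-2, 29.2 in high-Pi med16-2, 109 in low-Pi Col-0 and 70.0 in high-Pi Col-0. On this denominator low-Pi med16-2 stood below high-Pi Col-0, and the low phosphate libraries were not close.

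Mitochondrial loci, the other organelle genome, ranked the 4 libraries in the same order by share of gene counts. They took 1.03% of gene counts in low-Pi med16-2, 0.231% in high-Pi med16-2, 1.25% in low-Pi Col-0 and 0.501% in high-Pi Col-0. Summed mitochondrial counts were 4.49-fold (4.44 to 4.55) higher at low than at high phosphate in med16-2 and 2.40-fold (2.38 to 2.43) higher in Col-0, on TMM scaling, and on that scaling the plastid sums were 3.56-fold (3.21 to 3.97) and 1.45-fold (1.33 to 1.57) higher. For med16-2 over Col-0, TMM-scaled sums at high phosphate were 0.447 for mitochondrial and 0.394 for plastid loci. At low phosphate they were 0.836 and 0.970. There were 89.6, 71.1, 104 and 62.6 mitochondrial counts per plastid count in med16-2 at low and high phosphate and Col-0 at low and high phosphate. Nuclear ribosomal RNA loci, whose product is not polyadenylated in the manner of mRNA, were 14.2-fold (13.9 to 14.4) higher at low than at high phosphate in med16-2, but in Col-0 their ratio was 0.542 (0.531 to 0.554). Nearly all of these counts fell on 1 locus, the 18S locus AT3G41768. It took 1.37% of gene counts in low-Pi med16-2, where all nuclear ribosomal RNA loci took 1.38%. The part of library make-up in the plastid differences was not tested.

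Single loci were compared by a size rule: a locus was called higher or lower if its ratio between 2 libraries, on counts plus 0.5 with TMM scaling, was at least 2-fold and its exact 95% interval excluded equality. At low against high phosphate in med16-2, 38 of 61 members were called higher and 0 lower, where 2.56% of all 20867 loci tested were called higher and 1.18% lower. The median log2 ratio of the members was 1.53, against -0.00 for all loci, and 60 of 61 members had a log2 ratio above 0. The exception was ATCG00290, with 1 count at low and 6 at high phosphate. Of the 38, ATCG00400, ATCG00030 and ATCG00100 reached 10 summed counts only through low-Pi med16-2, so their calls are given as values only. By the same rule, 31 of 41 mitochondrial loci with 10 or more counts (75.6%) were called higher and 0 lower. Their median log2 ratio was 2.15, so the plastid loci were not alone in this. In Col-0, 2 of 61 members were called higher at low phosphate and 0 lower, beside 3.89% and 1.73% of all loci, so the share of members called was near the background. The members' median log2 ratio in Col-0 was 0.50, against -0.02 for all loci, with 48 of 61 above 0. Of the 41 mitochondrial loci, 5 were called higher and 2 lower in Col-0, with a median of 0.48.

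For med16-2 against Col-0 at high phosphate, 25 of 61 members were called lower and 0 higher, where 6.56% of all loci were called lower and 0.839% higher. The median log2 ratio was -1.28 for members and 0.01 for all loci, and 57 of 61 members lay below 0. Of the 41 mitochondrial loci, 17 (41.5%) were called lower and 0 higher, with a median of -1.26, much as for the plastid loci. For med16-2 against Col-0 at low phosphate, 5 of 61 members were called higher and 2 lower, beside 1.29% and 6.92% of all loci. Of the 5, ATCG00400 reached 10 summed counts only through low-Pi med16-2, so its call is given as a value only. In this comparison the median was -0.02 for members and 0.00 for all loci. Mitochondrial loci were unlike the members here: 13 of 41 (31.7%) were called higher and 0 lower, with a median of 0.80, though their summed ratio was 0.836. The comparisons share libraries, and the same med16-2 library at high phosphate is behind both large counts: 22 members were both lower there than in Col-0 and higher at low phosphate in med16-2. In 20 members no comparison met the rule. The shares of all loci with these 2 patterns are not given here, so the 22 and the 20 have no background beside them. Without the med16-2 library at low phosphate, whose make-up differed most, the counts that remain are the 25 lower in high-Pi med16-2 and the 2 higher in low-Pi Col-0.

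**Figure D3:**
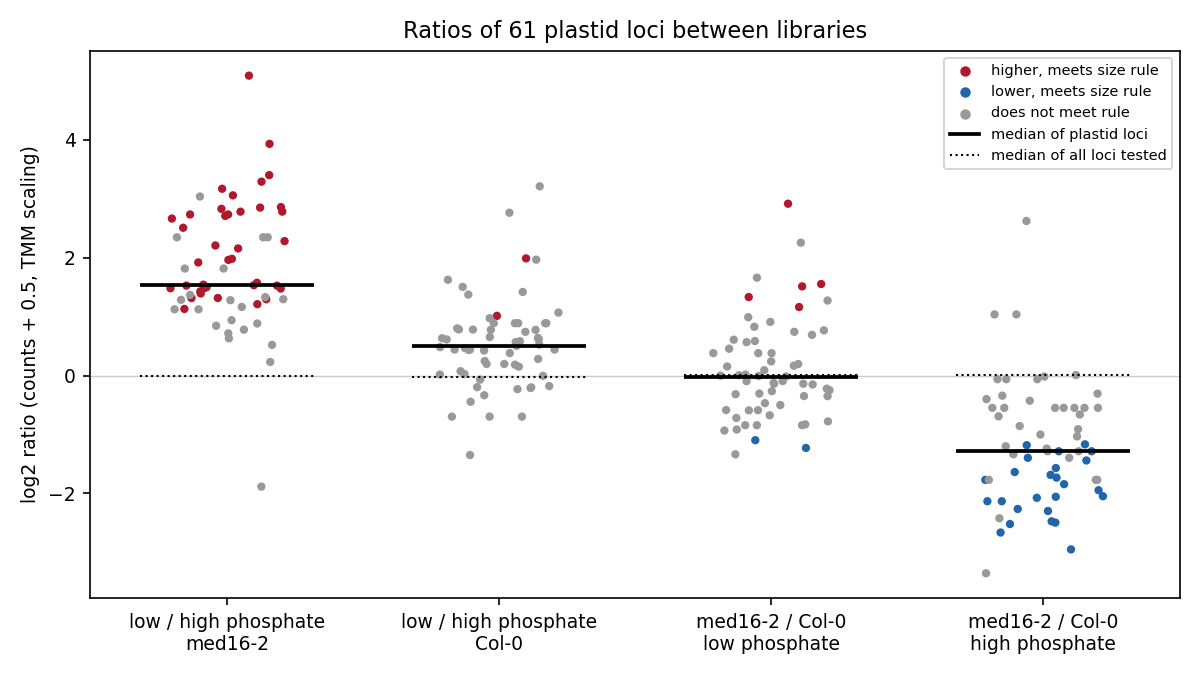
Log2 ratios (counts plus 0.5, TMM scaling) of the 61 plastid loci, 1 point per locus, in the 4 comparisons of libraries; red and blue points meet the size rule, solid lines are medians of the plastid loci and dotted lines medians of all loci tested. The plastid medians are 1.53 for phosphate in med16-2, 0.50 for phosphate in Col-0, -0.02 for genotype at low phosphate and -1.28 for genotype at high phosphate.

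The 4 libraries allow 1 test with residual variation, an additive model of genotype and phosphate that assumes the phosphate difference to be alike in both genotypes. With 1 library per group, a phosphate difference unlike between the genotypes enters that residual variation as error. A low number of members past the threshold thus does not show that their levels were alike. With edgeR's quasi-likelihood test and Benjamini-Hochberg adjustment over all 20867 loci, 0 of 61 members passed an adjusted p of 0.05 for phosphate, where 1.02% of all loci passed as higher and 0.273% as lower. The members' median fitted log2 difference for phosphate was 1.09, against -0.01 for all loci. The DESeq2 Wald test had 0 members past its adjusted threshold for phosphate and 15 with no adjusted p. The smallest adjusted p of a member for phosphate was 0.185. For genotype 1 member passed, ATCG00350, lower in med16-2 by a fitted log2 difference of -1.5 with an adjusted p of 0.0423 in edgeR's test, where 6.78% of all loci passed as lower and 0.978% as higher. The members' median fitted log2 difference for genotype was -0.48, against 0.00 for all loci. With a minimum mean CPM of 1, 0 members passed for genotype. DESeq2 also had 0 past its adjusted threshold, with 17 without an adjusted p.

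The difference between the phosphate log2 ratios of the genotypes, med16-2 minus Col-0, was at least 1 with a normal 95% interval above 0 in 15 of 61 members, and at most -1 with an interval below 0 in none of them, where 2.38% and 2.22% of all loci met these limits. The members' median difference was 1.09, against 0.02 for all loci. The 15 included CLP P (ATCG00670) at 2.62 (1.38 to 3.86), the CemA-like locus ATCG00530 at 2.69 (1.27 to 4.11), ATCG00020 at 2.91 (1.47 to 4.35) and ATCG00490 at 2.36 (1.5 to 3.21). With 1 library per group this difference was not tested.

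Among the annotated members, the Clp protease subunit had large ratios. The Clp protease degrades proteins of the plastid stroma, and its core is built from the plastid-encoded subunit and several nuclear-encoded ones. ATCG00670 had 74 counts in low-Pi med16-2, 10 in high-Pi med16-2, 38 in low-Pi Col-0 and 17 in high-Pi Col-0. In CPM these were 6.03, 0.695, 2.38 and 1.73, so the med16-2 low phosphate library was highest and the med16-2 high phosphate library lowest. It was 8.33-fold (4.47 to 18.9) higher at low than at high phosphate in med16-2, 2.52-fold (1.69 to 3.85) higher in med16-2 than in Col-0 at low phosphate, and 2.44-fold (1.07 to 6.07) lower in high-Pi med16-2. In Col-0 the ratio of low over high phosphate was 1.36 (0.760 to 2.61) and did not meet the rule.

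The nuclear genes for partners of this protease had ratios near 1. CLPP4, CLPP5, CLPR1 and CLPR2, which encode subunits of the protease core, and CLPC1, a chaperone that feeds it, did not meet the rule in any comparison. Over all loci, 0.839% to 6.92% were called per direction and comparison, so the absence of calls among so few genes is near that share. CLPP4 had 906 counts in low-Pi med16-2, 1194 in high-Pi med16-2, 1165 in low-Pi Col-0 and 721 in high-Pi Col-0, with log2 ratios of -0.17 for phosphate in med16-2 and 0.02 for genotype at low phosphate. The log2 ratios of the 5 partners lay between -0.28 and 0.23 over the 4 comparisons.

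Of the members, 2 are described as ribosomal proteins, and others may be among the unnamed loci. ATCG00660, ribosomal protein L20 of the large subunit, had 19 counts in low-Pi med16-2, 8 in high-Pi med16-2, 18 in low-Pi Col-0 and 8 in high-Pi Col-0. It was 2.69-fold (1.17 to 7.36) higher at low phosphate in med16-2 and met the rule in no other comparison. ATCG00750, ribosomal protein S11 of the small subunit, had 13, 6, 19 and 10 counts in the same libraries and met the rule in no comparison, with a ratio of 2.44 (0.902 to 8.16) for phosphate in med16-2. Of the nuclear-encoded plastid ribosomal proteins RPS1, RPL4, PRPL11, PRPS17 and PRPL13, none met the rule in any comparison. Their log2 ratios lay between -0.37 and 0.26. With 0.839% to 6.92% of all loci called per direction and comparison, no call among so few genes is near the background.

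ATCG00530 is the CemA-like locus. CemA is an envelope protein linked to proton and inorganic carbon transport of chloroplasts. The locus had 31 counts in low-Pi med16-2, 6 in high-Pi med16-2, 36 in low-Pi Col-0 and 25 in high-Pi Col-0, or 2.53, 0.417, 2.26 and 2.54 CPM. Levels were alike in 3 libraries and low in high-Pi med16-2. It was 5.73-fold (2.44 to 18.1) lower in med16-2 than in Col-0 at high phosphate and 5.69-fold (2.49 to 17.8) higher at low than at high phosphate in med16-2. In Col-0 the ratio of low over high phosphate was 0.883 (0.519 to 1.54).

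The remaining members carry no name in the sources used here. ATCG00500, the member with the most counts, had 124 counts in low-Pi med16-2, 37 in high-Pi med16-2, 141 in low-Pi Col-0 and 62 in high-Pi Col-0, or 10.1, 2.57, 8.83 and 6.29 CPM. It was 3.90-fold (2.71 to 5.84) higher at low phosphate in med16-2 and 2.44-fold (1.60 to 3.79) lower in high-Pi med16-2. ATCG00490 had 120, 19, 104 and 45 counts in the same libraries and was 7.25-fold (4.55 to 12.7) higher at low phosphate in med16-2 and 3.41-fold (1.98 to 6.27) lower in high-Pi med16-2. Neither met the rule for phosphate in Col-0, at ratios of 1.40 (1.03 to 1.92) and 1.42 (0.996 to 2.07). Both loci had their lowest level in high-Pi med16-2, as did every one of the 12 members with the most counts. ATCG00480 had 34, 16, 80 and 33 counts, and was 2.45-fold (1.34 to 4.84) higher at low phosphate in med16-2 and 2.97-fold (1.61 to 5.86) lower in high-Pi med16-2. ATCG00280 had 34, 14, 63 and 22 counts, with 2.79-fold (1.49 to 5.75) and 2.27-fold (1.12 to 4.85) in the same comparisons. ATCG01130, by contrast, met the rule in no comparison, with 33, 20, 55 and 18 counts and a phosphate ratio of 1.92 (1.08 to 3.56) in med16-2.

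**Figure D4:**
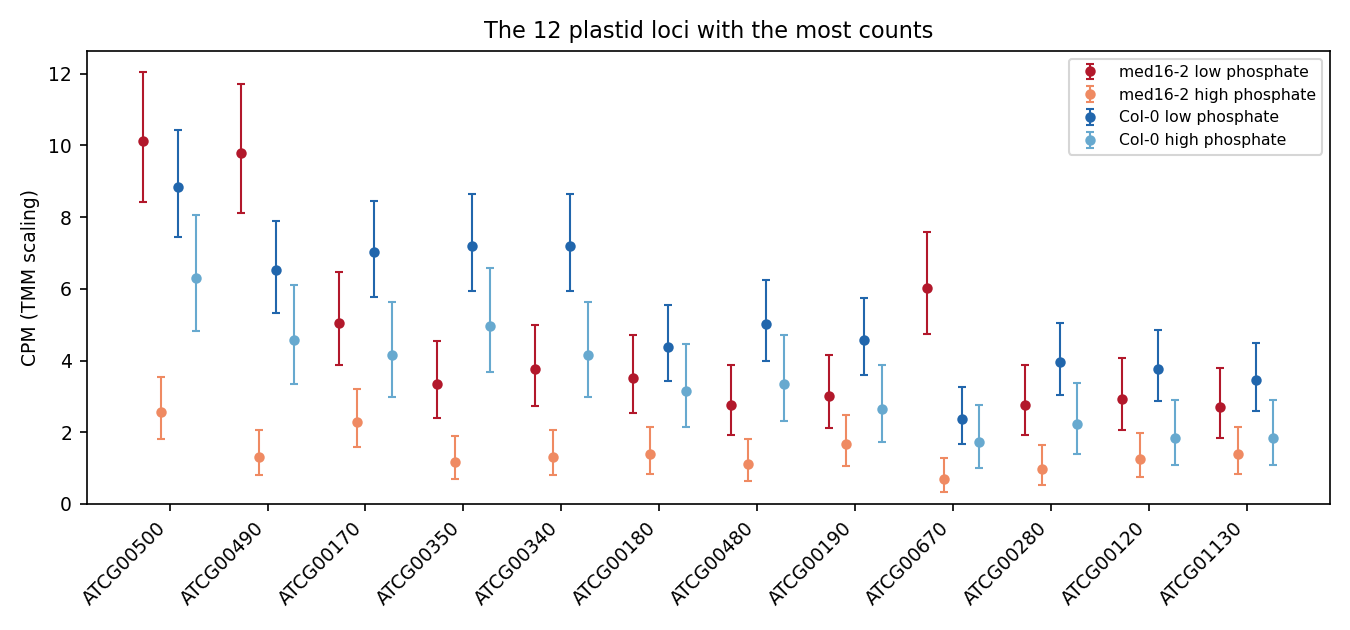
CPM (TMM scaling) of the 12 plastid loci with the most summed counts; each point is 1 library and bars are exact Poisson 95% intervals of its count. The med16-2 library at high phosphate is lowest for all 12 loci, and ATCG00670 (CLP P) is highest in low-Pi med16-2 with 6.03 CPM.

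The members called higher at low phosphate in Col-0 were ATCG00120 and ATCG00140, and both were also called higher in med16-2. ATCG00120 had 36 counts in low-Pi med16-2, 18 in high-Pi med16-2, 60 in low-Pi Col-0 and 18 in high-Pi Col-0. Its ratios of low over high phosphate were 2.32 (1.30 to 4.39) in med16-2 and 2.02 (1.20 to 3.70) in Col-0, just above the limit of 2-fold in Col-0. ATCG00140 had 11, 1, 22 and 3 counts, with ratios of 9.0 (1.88 to 556) and 3.97 (1.36 to 23.6), which the few counts at high phosphate leave wide. ATCG00120, at 132 summed counts, was the 1 member with at least 50 counts to meet the rule for phosphate in both genotypes.

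At high phosphate the largest differences between med16-2 and Col-0, among members with at least 50 summed counts that met the rule, were those of ATCG00800, ATCG00530, ATCG00270 and ATCG01110. ATCG00800 had 19, 3, 30 and 18 counts in low-Pi and high-Pi med16-2 and low-Pi and high-Pi Col-0, and was 7.72-fold (2.56 to 46.5) lower in med16-2. ATCG00270 had 14, 3, 33 and 13 counts, and was 5.64-fold (1.74 to 34.6) lower. ATCG01110 had 11, 5, 18 and 18 counts, a log2 ratio of -2.30. For all 3 the high-Pi med16-2 library was the lowest. Log2 ratios of the 25 members called lower spanned -2.95 to -1.17, and 19 of the 25 had at least 50 summed counts.

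At low phosphate the med16-2 over Col-0 ratio of the plastid share was 0.951 over gene counts, 0.910 (0.843 to 0.983) for the members with at least 50 summed counts and 0.611 over all reads listed, and some loci held different parts of the plastid counts in the 2 genotypes. A locus's part of the plastid counts was set against all other plastid loci, which takes the total plastid share out of the ratio. On that measure 6 of 61 loci had a larger part in med16-2 than in Col-0 at low phosphate and 5 a smaller part, by 95% intervals that exclude equality. For genotype at high phosphate 1 locus had a larger and 1 a smaller part, for phosphate in Col-0 0 and 2, and for phosphate in med16-2 5 and 4. These are counts over 61 intervals each, without adjustment.

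The 6 loci with a larger part were ATCG00490, ATCG00670 (CLP P), ATCG00020, ATCG00040, ATCG01050 and ATCG00400. ATCG00020 had 62 counts in low-Pi med16-2, 7 in high-Pi med16-2, 28 in low-Pi Col-0 and 13 in high-Pi Col-0. It made up 4.40% of plastid counts in low-Pi med16-2, against 1.51%, 1.48% and 1.61% in high-Pi med16-2 and Col-0 at low and high phosphate. Its level was 9.78-fold (4.76 to 26.9) higher at low than at high phosphate in med16-2 and 2.85-fold (1.82 to 4.68) higher in med16-2 than in Col-0 at low phosphate. ATCG00040 had 57, 9, 25 and 10 counts and made up 4.05%, 1.94%, 1.32% and 1.24%, with a ratio of 2.93 (1.82 to 4.96) for genotype at low phosphate. The med16-2 low phosphate library was the highest of the 4 for both loci in level and in part.

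CLP P made up 5.25% of plastid counts in low-Pi med16-2, against 2.16%, 2.01% and 2.11% in high-Pi med16-2 and Col-0 at low and high phosphate. ATCG00490 made up 8.52%, against 4.09%, 5.50% and 5.58%. ATCG00400 had 14 counts in low-Pi med16-2, 0 in high-Pi med16-2, 2 in low-Pi Col-0 and 0 in high-Pi Col-0, and was at least 5.48-fold higher at low phosphate in med16-2 against a floor of 3 counts. This locus reached the minimum of 10 summed counts only through low-Pi med16-2, so its higher call and its larger part there follow from that minimum and are given as values only. ATCG01050 had 21, 3, 12 and 10 counts. For all 6 loci the part was largest in low-Pi med16-2, the library with 36.6% of reads aligned to several places, and whether that moved the parts was not tested.

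The 5 loci with a smaller part were ATCG00350, ATCG00340, ATCG00480, ATCG00680 and ATCG00780. ATCG00350 had 41 counts in low-Pi med16-2, 17 in high-Pi med16-2, 115 in low-Pi Col-0 and 49 in high-Pi Col-0. It was 2.14-fold (1.5 to 3.16) lower in med16-2 than in Col-0 at low phosphate and 4.13-fold (2.38 to 7.80) lower at high phosphate, and its part was 2.91% and 3.66% in med16-2 at low and high phosphate, against 6.08% in both Col-0 libraries. ATCG00680 had 20, 8, 62 and 24 counts and was 2.34-fold (1.42 to 4.16) lower in low-Pi med16-2 and 4.21-fold (1.91 to 11.3) lower at high phosphate. These were the 2 members called lower in med16-2 at both phosphate levels, and both med16-2 libraries lay below both Col-0 libraries for each of them.

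**Figure D5:**
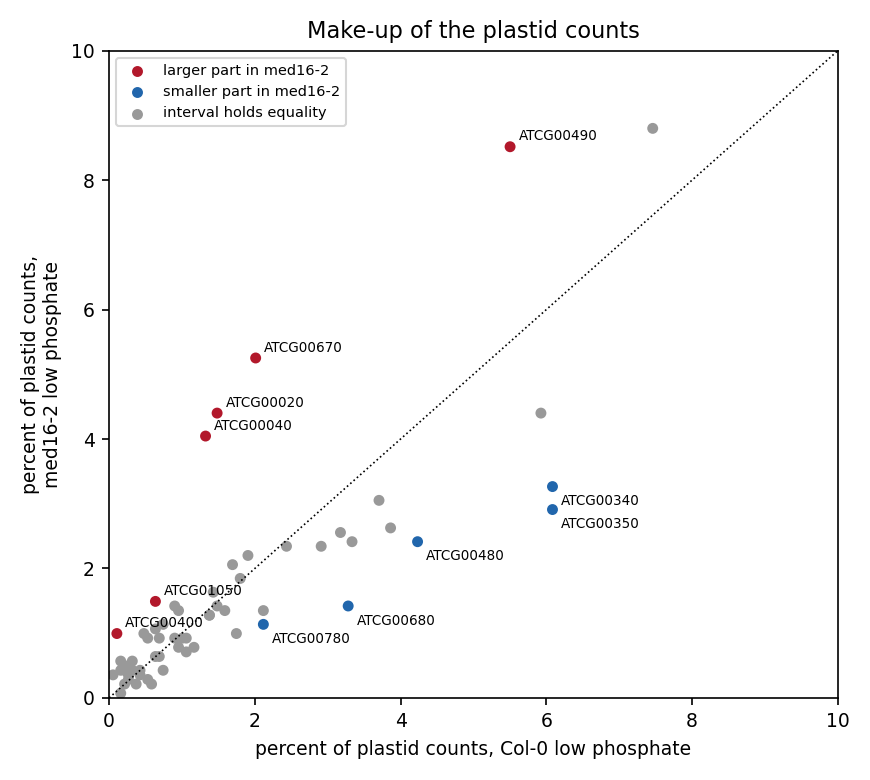
Percent of plastid counts held by each of the 61 loci in low-Pi med16-2 (vertical axis) and in low-Pi Col-0 (horizontal axis); the dotted line marks equality and coloured points are loci whose 95% interval excludes it. ATCG00670 (CLP P) holds 5.25% in med16-2 against 2.01% in Col-0, and ATCG00350 2.91% against 6.08%.

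Some loci with adjacent identifiers had like ratios, and the following examples were picked after their values had been seen. ATCG00340, next to ATCG00350, had 46 counts in low-Pi med16-2, 19 in high-Pi med16-2, 115 in low-Pi Col-0 and 41 in high-Pi Col-0, and its log2 ratios of med16-2 to Col-0 were -0.93 at low and -1.64 at high phosphate, beside -1.10 and -2.05 for ATCG00350. ATCG00030, between ATCG00020 and ATCG00040, had 6, 0, 3 and 3 counts, with a log2 ratio of 1.27 for genotype at low phosphate beside 1.51 and 1.55 for its neighbours, though its own interval held equality. ATCG00030 reached the minimum of 10 summed counts only through low-Pi med16-2, so its ratio is given as a value only. ATCG00170 had 62, 33, 112 and 41 counts, ATCG00180 43, 20, 70 and 31, and ATCG00190 37, 24, 73 and 26. These 3 had log2 phosphate ratios of 1.13, 1.32 and 0.85 in med16-2 and of 0.74, 0.47 and 0.78 in Col-0. In med16-2 the phosphate ratios of these 3 lay below the members' median of 1.53. Libraries made without strand cannot tell reads of overlapping plastid loci apart, and neighbouring loci may be read as 1 transcript, so such loci are not independent of each other.

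Over the 61 loci, counts in pairs of libraries had Spearman's rho between 0.800 and 0.923. It was highest between Col-0 at low and high phosphate and lowest between med16-2 at low and high phosphate. These values only describe the libraries: each locus has the same length in all of them, and the libraries differ in depth.

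Nuclear genes that act on plastid RNA had few calls, as did all loci, of which 0.839% to 6.92% were called per direction and comparison. Of 20 genes of plastid transcription, among them sigma factors, a phage-type polymerase and proteins attached to the plastid polymerase, 19 had 10 or more counts, and the median log2 ratio was between -0.12 and 0.08 in the 4 comparisons. The only calls among them were of SIG5, a sigma factor known to respond to light and stress. It had 86 counts in low-Pi med16-2, 100 in high-Pi med16-2, 106 in low-Pi Col-0 and 286 in high-Pi Col-0. Its Col-0 high phosphate library stood above the other 3, and its log2 ratios were -2.06 for genotype at high phosphate and -2.12 for phosphate in Col-0. Of 9 genes of plastid RNA decay and protection, CSP41B, an RNA-binding protein of chloroplasts, was lower in high-Pi med16-2 with a log2 ratio of -1.34. That was the only call among the 9, and PNPase, an exonuclease of plastid RNA decay, had log2 ratios between -0.15 and 0.28.

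Nuclear genes for photosynthetic partners of plastid-encoded subunits are listed separately. Of 14 such genes, 9 had 10 or more counts, and 5 of the 9 were called lower in low-Pi med16-2 and 5 at high phosphate, beside 6.92% and 6.56% of all loci. PETC, the Rieske protein of the cytochrome b6f complex, had 2 counts in low-Pi med16-2, 1 in high-Pi med16-2, 65 in low-Pi Col-0 and 37 in high-Pi Col-0. RBCS1A, a small subunit of Rubisco, had 1, 0, 65 and 108. PSAD1, of photosystem I, had 15, 16, 184 and 111, and PSBO1, of the oxygen-evolving complex, had 58, 55, 437 and 326. For these 4 genes both med16-2 libraries lay below both Col-0 libraries. ATPC1, the gamma subunit of the plastid ATP synthase, had 28, 16, 172 and 117, and was the 1 gene of the list called higher at low phosphate in med16-2. NDHL had 7, 5, 0 and 2 counts and was called higher in low-Pi med16-2 than in low-Pi Col-0. It reached 10 summed counts only through low-Pi med16-2, so that call is given as a value only. Of the 14 partners outside photosynthesis, including subunits of plastid acetyl-CoA carboxylase, 0 met the rule in any comparison. Since 0.839% to 6.92% of all loci were called per direction and comparison, 0 of 14 is near the background.

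Markers of green tissue are given as a whole list beside the plastid values. RBCS1A and PSBO1 are in this list too. The 6 genes summed to 25.3 CPM in low-Pi med16-2, 19.7 CPM in high-Pi med16-2, 179 CPM in low-Pi Col-0 and 198 CPM in high-Pi Col-0. LHCB1.1 had 0 counts in every library. Reads that align to several places are kept out of gene counts, so this does not show that its RNA was absent. At each phosphate level, 5 of the 6 genes were called lower in med16-2. Of all loci, 6.92% were called lower at low and 6.56% at high phosphate. The plastid share of gene counts in med16-2 over Col-0 was 0.951 at low and 0.407 at high phosphate. Between phosphate levels in med16-2, LHB1B2 was called higher at low phosphate, 2.58-fold (1.63 to 4.27), and no gene lower. That was 1 of 5 tested, beside 2.56% of all loci, with a median log2 ratio of 0.78. In Col-0, RBCS1A was called lower at low phosphate, beside 1.73% of all loci, and no gene higher, with a median of -0.27. The 4 markers of differentiated root, CASP1, EXPA7, COBL9 and IRX3, summed to 400 CPM, 346 CPM, 466 CPM and 499 CPM in the same libraries. None of them met the rule, which 0.839% to 6.92% of all loci did per direction and comparison. The part of tissue make-up in the plastid values was not tested.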

How the data were processed

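Each library came as a deposited table of raw counts, with 1 whole number per locus. The submitters' processing notes name Trimmomatic (0.35), TopHat2 (2.0.9), HTSeq (0.6.0) and the TAIR10 genome, without settings or the annotation release. Libraries were not strand-specific, per the labels' protocols. Lines that name no gene held 42.1% and 10.1% of reads in low-Pi and high-Pi med16-2 and 9.89% and 12.5% in low-Pi and high-Pi Col-0, and stayed out of library sizes. In that order, the limit set by 0 counts (3 counts) was 0.245, 0.208, 0.188 and 0.305 CPM.

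Counts were scaled with edgeR 4.0.16 TMM factors (0.997, 1.01, 1.02 and 0.977 in that order). Ratios have exact (Clopper-Pearson) 95% intervals on the pair of counts, the difference of ratios a normal interval. The additive edgeR fit has 1 residual degree of freedom, which holds the departure from equal phosphate differences in both genotypes. Its p-values cannot tell that departure from spread between libraries. DESeq2 1.42.0 was an alternative. The steps were run on simulated data, with changes placed only on loci with more counts than most members have. Recovery at the members' counts was therefore not tested, and for the size rule the simulated spread was counting error only. Members, lists and comparisons were chosen with earlier results of these data known. Values per library were to be given for the 12 members with the most counts, those with at least 50 counts called alike in both comparisons of a factor, and up to 4 with the largest ratio per direction and comparison. ATCG00660, ATCG00750, ATCG00140, ATCG00400, ATCG01050, ATCG00030, ATCG00290 and ATCG00780 were added after their values were seen. Planned functional groups of plastid genes were not used, since the tables used here did not match any of the 133 identifiers to a symbol.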

Additional observations from a re-analysis of the deposited data

Results flagged for a closer look

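Reads outside the gene counts drew attention because their share in low-Pi med16-2 was above that of all other libraries. The share with several alignments was 36.6% of listed reads there, against 7.18% in high-Pi med16-2, 6.65% in low-Pi Col-0 and 9.27% in high-Pi Col-0. Reads in no annotated gene made up 4.43% there, against 1.21%, 1.31% and 1.41% in the same order. How many of them come from plastid RNA cannot be read from these files.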

How the results depend on the processing

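No paired analysis was possible because each group has 1 library, and leaving out a replicate was not possible for the same reason. Over 22 results, 20 recomputed values moved past the limit used, which for counts was a change of over 1.5 times, 112 moved less or not at all, and no called direction turned. Among the 112, a mean CPM of at least 1 left 26 members called higher for phosphate in med16-2, against 38. It left 19 called lower for genotype at high phosphate, against 25. A pseudocount of 5 left 10 with a higher difference of phosphate ratios, against 15. The mean CPM limit also left fewer members to test, and a minimum of 50 summed counts left 31, so fewer calls there need not be a smaller share. Shares of all loci at the changed settings are not given here. With all reads as denominator the plastid share ratio was 2.27 for phosphate in med16-2 and 0.611 for genotype at low phosphate. A pseudocount of 5 gave medians of 1.13 for phosphate in med16-2, 0.22 for phosphate in Col-0 and -0.96 for genotype at high phosphate, where a minimum of 1 count gave -0.88. For phosphate in Col-0, 1 member was called higher with a pseudocount of 5, 1 where mean CPM had to reach 1, and 7 at a fold of 1.5. For genotype at low phosphate, a mean CPM of at least 1 left 3 higher and a median of -0.24, and a fold of 1.5 gave 6 lower. In the additive fit, 0 members were lower for genotype with edgeR at a mean CPM of at least 1 and 0 with DESeq2. Settings chosen after seeing the data were loci under 100 summed counts (share ratio 1.34 for phosphate in Col-0), at least 50 summed counts (1 higher for phosphate in Col-0, 3 higher and a median of -0.22 for genotype at low phosphate), and no loci of the 6 with a larger part (share ratios of 2.96 for phosphate in med16-2 and 0.805 for genotype at low phosphate). Beyond the construction of each setting, the cause of these moves was not tested. The alternatives without ribosomal and transfer RNA loci and without repeated gene copies were not run, since plastid identifiers could not be matched to symbols. Most members have few counts, which leaves wide intervals.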
